A study of Homo sapiens with 56 samples.

Results

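The amino acid transporters described here are the genes of 7 solute carrier families, SLC1A, SLC3A, SLC6A, SLC7A, SLC36A, SLC38A and SLC43A, as named in the platform annotation of the arrays. A probe set was taken when its only gene symbol was one of these family prefixes followed by a number and nothing more, and each gene was represented by its probe set with the highest mean over all arrays. This gave 56 genes, measured by 138 probe sets, of 19775 genes and 54675 probe sets in all. The rule reads gene names, and signal enters it only in the choice of probe set. RNA was measured on 56 Affymetrix arrays from 4 cell lines of human cutaneous T-cell lymphoma (CTCL), HuT-102, MJ, MY-LA and HuT-78, each a single established line. Cells grew with cobomarsen (MRG-106), a synthetic oligonucleotide that blocks miR-155, or were left untreated. As a general matter miR-155 is a microRNA abundant in CTCL, and its level in each of the 4 lines is not given here. HuT-102, MJ and MY-LA were harvested at day 4 and at day 8, the earlier time chosen by the study for direct targets and the later one for downstream targets, and HuT-78 at day 8 only. Line, day and treatment make 14 groups, each of 4 arrays. As background, HuT-102 and MJ carry the retrovirus HTLV-1.

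The dose of cobomarsen is not given in the labels used here, and no array of a control oligonucleotide was used, so what any oligonucleotide would do and what blocking miR-155 does cannot be told apart. At day 4 all wells were diluted by a factor set on the untreated cells, and medium was added once more before day 8. Cell density at harvest is not given, so at day 8 density and nutrient supply cannot be told apart from the inhibitor. The median signal of the arrays was 56.4 to 91.7, and a gene was tested only where it averaged at least a signal of 74.0, the median of all values, over the arrays compared. PICALM, a published target of miR-155, rose with cobomarsen by 1.54 to 2.21 on the log2 scale in the 6 comparisons of HuT-102, MJ and MY-LA, and its change in HuT-78 was -0.14 (adjusted p = 0.384). The T cell marker CD3D had a mean signal of 6292 to 19623 in the 4 lines, and CD3E, CD3G, CD247 and PTPRC were over 74.0 in each. In contrast, CD28 was at 41.0 to 47.3 in the 4 lines, and CD7 was at 100.8 in HuT-78 and at or under 33.7 elsewhere. In MY-LA LCK was at 13.0, CD4 at 62.2 and CD5 at 23.2, and in HuT-78 CD2 was at 44.4. The monocyte markers CD14 and LYZ were at or under 37.3 in every group. CSF1R, a macrophage marker, was higher, with group means of 58.9 to 221.2. Of the B cell markers, CD79A had group means of 279.8 to 412.1, and MS4A1 was at or under 97.7 in every group. PAX5, another B cell marker, had a mean of 1402 in HuT-102 and was at or under 90.4 in the other lines. CD79B had a mean of 244.8 in HuT-78 and was at or under 50.8 in the other lines. The epithelial markers EPCAM and KRT18 had means of 8908 and 841.6 in HuT-78, and were at or under 25.5 and 79.2 in the other lines. KRT5 and KRT14 were at or under 63.4 in every group.

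Amino acid transporters bring the building blocks of protein and glutathione into the cell and move them between its compartments. Activated T cells raise their uptake of neutral amino acids. The large neutral carriers work as pairs of a light chain, such as SLC7A5 (LAT1), and the heavy chain SLC3A2 (4F2hc, CD98), which brings the light chain to the surface. When amino acids are short, the kinase GCN2 (EIF2AK4) raises translation of the transcription factor ATF4, which binds amino acid response elements of several transporter genes, and the lysosomal kinase complex mTORC1 reads the supply. Several SLC6A members carry other substrates (SLC6A4 serotonin, SLC6A6 taurine, SLC6A8 creatine), and SLC43A3 carries nucleobases, so membership in a family does not mean that a protein moves amino acids.

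The sequences behind the design and behind the most general change are these. The inhibitor is directed at miR-155-5p, printed with its seed (bases 2 to 8) in capitals, GRCh38.p14 chr21:25573983-25574006, plus strand. A promoter window is printed for each of the sister genes of the ASC transport system, SLC1A4 (chr2:64989149-64989448, plus strand) and SLC1A5 (chr19:46784765-46785064, minus strand). Each window runs from 250 bases before to 50 bases after an annotated start, with the response element core in capitals. SLC1A4 has 2 windows and SLC1A5 has 3, and only the window printed for each holds the core. SLC1A4 is shown because it was the only member that rose in all 6 comparisons of HuT-102, MJ and MY-LA, and SLC1A5 because it did not. Sequences are those of RefSeq.
hsa-miR-155-5p: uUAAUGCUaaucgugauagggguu
SLC1A4: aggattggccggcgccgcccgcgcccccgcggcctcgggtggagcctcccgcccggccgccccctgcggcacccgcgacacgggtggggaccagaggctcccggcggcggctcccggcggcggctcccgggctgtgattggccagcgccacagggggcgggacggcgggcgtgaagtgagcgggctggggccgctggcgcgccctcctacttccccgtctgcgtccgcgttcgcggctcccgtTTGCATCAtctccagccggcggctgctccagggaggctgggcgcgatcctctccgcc
SLC1A5: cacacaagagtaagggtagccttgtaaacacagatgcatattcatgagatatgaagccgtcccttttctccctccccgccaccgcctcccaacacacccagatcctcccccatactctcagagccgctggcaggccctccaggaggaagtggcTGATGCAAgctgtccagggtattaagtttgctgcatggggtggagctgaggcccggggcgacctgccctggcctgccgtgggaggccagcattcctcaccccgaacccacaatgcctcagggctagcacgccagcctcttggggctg

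The capitals in both windows are matches to TGATGNAA, the core of the amino acid response element to which ATF4 and its C/EBP partners bind, searched on both strands. In SLC1A4 the match reads TTGCATCA, lies on the minus strand and begins 7 bases before the start, and in SLC1A5 it reads TGATGCAA and begins 97 bases before it. RefSeq promoter windows were at hand for 42 of the 56 genes, and 6 of them (14.3%) held the core in at least 1 window, SLC1A3, SLC1A4, SLC1A5, SLC3A2, SLC7A1 and SLC38A1. The same core stood in 3.62% of 35116 windows and in 4.46% of 27305 genes. SLC7A1 and SLC38A1 hold it as TGATGAAA and SLC3A2 as TTACATCA. The E-box CACGTG, read by MYC and by the lysosomal factors TFEB and TFE3, stood in windows of 10 members (23.8%), against 8.77% of all genes, and the antioxidant response core TGACNNNGC in 7 members (16.7%), against 16.1%. A gene can have several windows, so a share of genes depends on their number, and a match is a description of letters and not a bound site. Of the genes with the response element core, SLC1A4 rose in MJ at both days. SLC3A2 and SLC7A1 fell there at both days, and SLC1A5 and SLC38A1 at day 4 only. A link between the core and the direction of change was not tested.

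Between cobomarsen and untreated cells, 24 of the 56 transporter genes were called in at least 1 of the 7 comparisons, 13 of them higher only, 3 lower only and 8 in opposite directions in different lines or days. The test was limma on log2(signal + 16), fitted over all 56 arrays with 1 spread for the 14 groups, and a call needs a Benjamini-Hochberg adjusted p under 0.05 over all genes tested. The labels do not say whether the 4 arrays of a group came from separate cultures, so the p-values measure the spread between these arrays, which may be technical. A further 14 genes were tested and never called, and 18 were never tested, with group means of 0.99 to 99.3. Values added before the logarithm shrink the fold of genes with a low signal. Bulk RNA cannot tell fewer cells of a kind from less RNA per cell.

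In HuT-102, 6 members rose and 5 fell of 29 tested at day 4, where 23.1% of all genes tested were called and 10.1% were called higher. At day 8, 7 rose and 5 fell of 30 tested, against 40.3% of all genes called, 19.1% higher. In MJ, 4 rose and 6 fell of 32 at day 4 (27.4% of all genes called, 13.2% higher), and 6 rose and 6 fell of 32 at day 8 (34.0%, 15.3% higher). In MY-LA, 5 rose and 2 fell of 26 at day 4 (26.4%, 13.4% higher), and 13 rose and 1 fell of 27 at day 8, where 42.0% of all genes were called and 23.6% were called higher. In HuT-78 no member rose and 3 fell of 26, where 22.0% of all genes were called and 10.6% were called higher. The share of members called ran from 11.5% in HuT-78, against 22.0% of all genes, to 51.9% in MY-LA at day 8, against 42.0%. The members were not tested as a set, so the results are those of single members. The median log2 change of the members tested was 0.055 and 0.23 in HuT-102 at day 4 and day 8, -0.16 and -0.11 in MJ, 0.18 and 0.28 in MY-LA and -0.13 in HuT-78, while that of all genes tested lay between -0.048 and 0.020. The calls in HuT-78 rest on the spread shared with the other lines. Fitted with its own 8 arrays, HuT-78 had 0 members and 1 of 10959 genes called (0.00912%), with 3 members at an unadjusted p under 0.05. In MY-LA at day 4 the count with its own arrays was 3, and in the fit of all arrays it was 3 without cobomarsen array 1 and 4 without untreated array 1.

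The 24 genes made 69 called pairs of gene and comparison, and in 55 of them (79.7%) the treated and untreated arrays did not overlap, against 78.8% of the 24650 called pairs of all genes. For all genes this share was 26.3% in HuT-78 and 75.1% to 92.5% in the other comparisons. In 19 of the 69 the call was lost when some single array was left out. These were SLC1A5 and SLC38A1 in MJ at day 4, SLC6A13, SLC7A6, SLC7A10 and SLC38A6 in MJ at day 8, and SLC6A4 and SLC43A1 in HuT-102 at day 4. In MY-LA they were SLC1A4, SLC6A8, SLC7A6, SLC38A1 and SLC38A6 at day 4 and SLC7A6, SLC36A1, SLC38A2 and SLC43A1 at day 8, and in HuT-78 SLC7A6 and SLC38A10. When each line was fitted with its own arrays, whose spread differs from the shared one, 11 of the 69 calls were lost and 15 others appeared. Those lost were SLC43A1 in HuT-102 at day 4, SLC38A6 in MJ at day 8, SLC1A4, SLC7A6, SLC38A1 and SLC38A6 in MY-LA at day 4, SLC7A6 and SLC43A1 in MY-LA at day 8, and the 3 of HuT-78. Those gained were SLC43A2 at day 4, SLC7A5 and SLC38A6 at day 8 and SLC6A15 at both days in HuT-102. In MJ they were SLC7A5, SLC7A6, SLC7A10 and SLC7A11 at day 4, SLC1A5 at day 8 and SLC1A1 and SLC38A5 at both days, and in MY-LA SLC6A6 at day 8 (-0.24).

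**Figure D1:**
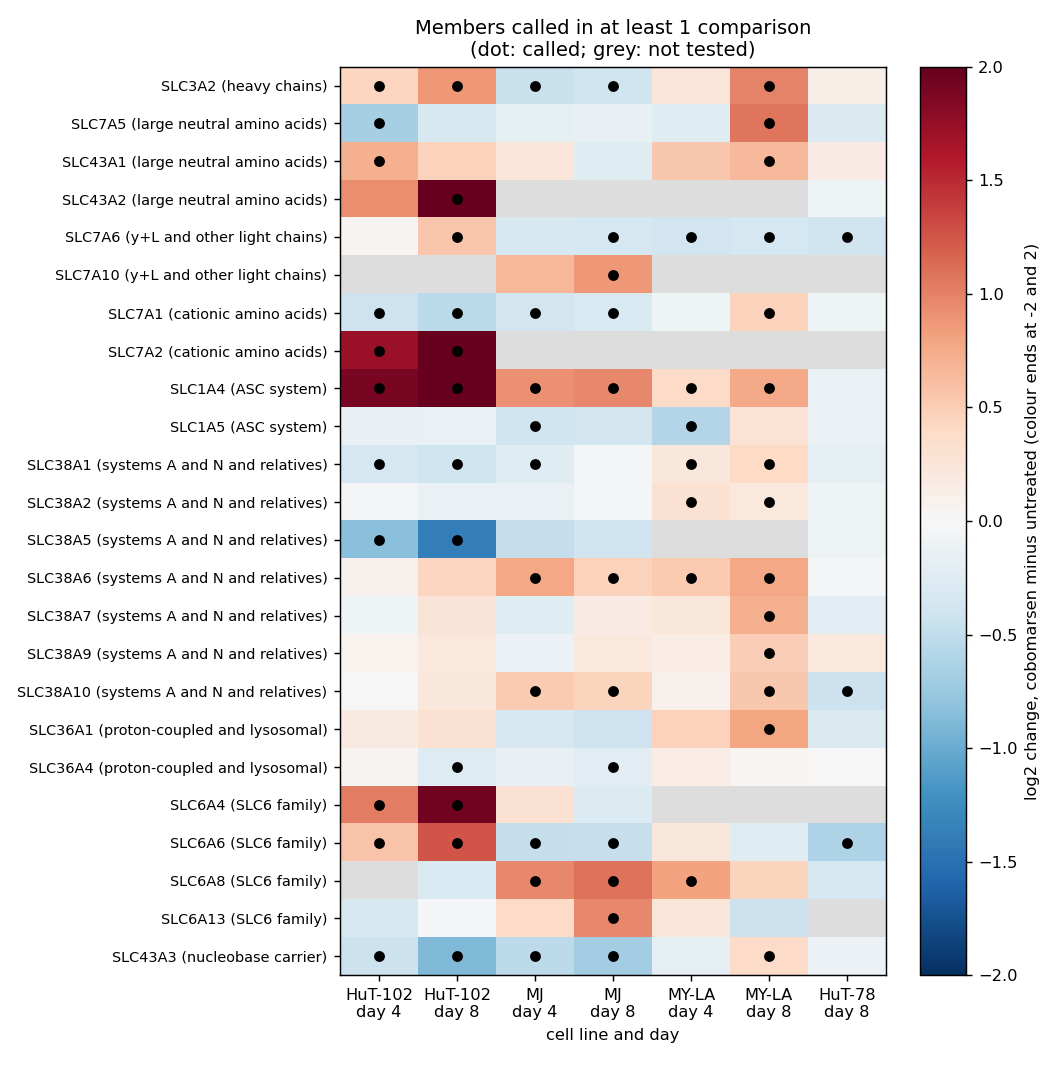
Log2 change, cobomarsen minus untreated, of the 24 transporter genes called in at least 1 comparison (down the page) in the 7 comparisons of line and day (across), with the colour scale ending at -2 and 2. A dot marks a call, and grey marks a gene not tested; SLC1A4 is the gene with a positive colour and a dot in all 6 columns of HuT-102, MJ and MY-LA.

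SLC1A4 (ASCT1), an exchanger of alanine, serine, cysteine and threonine, rose with cobomarsen in HuT-102, MJ and MY-LA at both days. In HuT-102 at day 4 its signal was 662, 796, 688 and 669.8 with cobomarsen, against 182, 196, 184 and 151 untreated. At day 8 it was 1261, 1246, 1214 and 1678 with cobomarsen, against 167, 194, 145 and 129 untreated. Every treated array of HuT-102 lay above every untreated one, and the change was 1.89 ± 0.12 at day 4 (log2 change ± SE, adjusted p = 6.77e-19) and 2.97 at day 8, 7.82-fold. In MJ the 4 treated arrays at day 4 read 4549, 4238, 4383 and 4637, against 2198, 2381, 2431 and 2398 untreated. At day 8 they read 3647, 4089.6, 3614 and 3787, against 1922, 1951, 1855 and 2011 untreated. The groups of MJ did not overlap at either day, and the change was 0.92 at day 4 and 0.96 at day 8 (adjusted p = 7.56e-09 and 1.34e-09). In MY-LA at day 4 the signal was 1058, 876, 961 and 690.5 with cobomarsen, against 531, 622, 673 and 942 untreated, and at day 8 it was 1330.0, 1489, 1462 and 1586, against 946, 787, 874 and 837. The day 4 groups of MY-LA overlapped (0.38, adjusted p = 0.0104) and its call was lost with the arrays of MY-LA alone, at an adjusted p of 0.0514, whereas those of day 8 did not overlap (0.76, adjusted p = 3.39e-07). In HuT-78, the line with the highest signal of this probe set, the treated arrays read 6479, 4847, 5450.4 and 5672 and the untreated 6516, 5620.3, 6152 and 6121, overlapping ranges with a change of -0.13 ± 0.12 (adjusted p = 0.483).

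The effect on SLC1A4 differed between lines and, in HuT-102, between days. Day 8 exceeded day 4 by 1.08 in HuT-102 (adjusted p = 4.67e-06), where the day differences of all genes were called in 7.18%. The day 8 change in HuT-102 was larger by 2.01 than that in MJ (adjusted p = 1.59e-14), while MJ and MY-LA differed by 0.20 ± 0.16 (adjusted p = 0.369). Of all genes, 28.2% were called in the first of these comparisons and 33.8% in the second. The change in MY-LA exceeded that in HuT-78 by 0.88 (adjusted p = 1.94e-05, with 38.9% of all genes called). The gene has 4 other probe sets. A pair of these was called higher in the same 6 comparisons, another in all of them but MY-LA day 4, and the last in MY-LA day 4 alone.

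**Figure D2:**
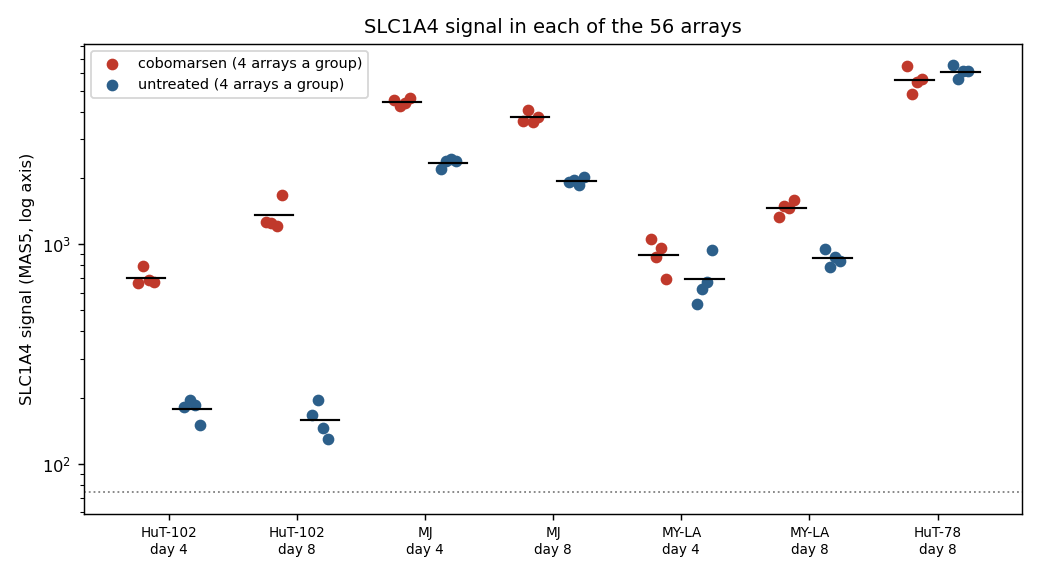
Signal of SLC1A4 on a log axis in each of the 56 arrays, with cobomarsen left of untreated in each line and day, bars at the group means and a dotted line at the signal of 74.0 needed for testing. Treated and untreated arrays stand apart in HuT-102 and MJ at both days and in MY-LA at day 8, and overlap in MY-LA at day 4 and in HuT-78.

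SLC1A5 (ASCT2), the sister exchanger that carries glutamine, did not follow SLC1A4. It read 1423, 1018, 1201 and 1073 with cobomarsen, against 1436, 1381, 2430.2 and 1961 untreated, in MY-LA at day 4 and fell by 0.58 (adjusted p = 0.00267), and the groups overlapped. In MJ at day 4 it fell to a mean of 1632 with cobomarsen, against 2129 untreated (-0.39, adjusted p = 0.0449), and all treated arrays lay under the untreated ones. The change in MY-LA at day 8 was 0.28 and was not called (adjusted p = 0.127), and it differed from that of day 4 by 0.86 (adjusted p = 0.00309, with 17.1% of all genes called for this difference). In HuT-102 the changes were -0.15 and -0.13, neither called.

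The heavy chain SLC3A2 moved in opposite directions in different lines. HuT-102 at day 8 read 1461, 1614, 1497 and 1527 with cobomarsen, against 834, 837, 898 and 765 untreated. MY-LA at day 8 read 1572, 1908, 1966 and 1793, against 831, 1006, 842 and 931 untreated. Both lines had all treated arrays above all untreated ones, with changes of 0.86 ± 0.11 and 0.99 ± 0.11 (adjusted p = 2.97e-09 and 8.37e-11). In MJ at day 8 the order was the reverse, with 1346, 1252, 1395 and 1361 with cobomarsen, against 1852, 1549.8, 1857 and 1866 untreated. At day 4 MJ read 1861, 1877, 1744 and 1882 with cobomarsen, against 2509, 2663, 2385 and 2535 untreated. SLC3A2 thus fell in MJ at both days, by 0.45 at day 4 and 0.41 at day 8 (adjusted p = 0.000946 and 0.00233), and the groups did not overlap. The difference of the day 8 change between MJ and MY-LA was -1.40 (adjusted p = 1.76e-10), and that between HuT-102 and MY-LA was -0.13 ± 0.15 (adjusted p = 0.532, with 39.1% of all genes called). In HuT-102 it had already risen at day 4 (0.43, adjusted p = 0.00223), and in MY-LA at day 4 the change of 0.25 was not called. HuT-78 had a change of 0.12 ± 0.11. The other heavy chain, SLC3A1 (rBAT), which pairs with SLC7A9 in kidney and gut, had group means near the limit of testing and no call.

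SLC7A5 (LAT1), the light chain that takes up leucine and other large neutral amino acids with SLC3A2, rose in MY-LA at day 8 and fell in HuT-102 at day 4. The arrays of MY-LA at day 8 read 2158, 2553, 2851 and 3077 with cobomarsen, against 1524, 1025, 1183 and 1329 untreated. This was a change of 1.07 ± 0.17 without overlap (adjusted p = 1.39e-06), and it differed from that at day 4 by 1.31 (adjusted p = 0.00013). Those of HuT-102 at day 4 read 571, 613, 725 and 584 with cobomarsen, against 988, 937, 1034 and 1001 untreated (-0.66, adjusted p = 0.00341). At day 8 the untreated HuT-102 cells themselves were lower, at 608, and the change to a treated mean of 485 was not called in the fit of all arrays (-0.32 ± 0.17, adjusted p = 0.143) and was called lower with the arrays of HuT-102 alone (adjusted p = 0.0448). SLC3A2 and SLC7A5 hence changed in the same direction in MY-LA at day 8 and in opposite directions in HuT-102 at day 4. In HuT-78, array 1 of both treatments stood above the other arrays, at 3765, 1644, 2343 and 1861 with cobomarsen and 4314, 2408, 2506 and 2332 untreated.

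SLC43A2 (LAT4), a facilitative carrier of branched-chain and aromatic amino acids, had one of the largest rises, in HuT-102. At day 8 it read 888, 1117, 882 and 1272 with cobomarsen, against 198, 208, 163 and 182 untreated, a change of 2.36 ± 0.37 (adjusted p = 5.15e-07). At day 4 it read 534, 533, 624 and 651 with cobomarsen, against 293, 283, 280.1 and 334 untreated, which was not called in the fit of all arrays (adjusted p = 0.0584) and was called with the arrays of HuT-102 alone (adjusted p = 2.05e-05). The signal of this gene in the other lines is near or under the limit of testing, where log2 values scatter more, and that scatter enters its shared SE. Its relative SLC43A1 (LAT3) rose to 161 with cobomarsen, against 92.6 untreated, in HuT-102 at day 4 (0.71, adjusted p = 0.0443). It rose to 179, against 111 untreated, in MY-LA at day 8 (0.65, adjusted p = 0.0435), and the groups overlapped in both cases. SLC7A8 (LAT2) was tested in all 7 comparisons and not called, with changes of -0.082 in HuT-102, -0.38 in MJ and -0.39 in MY-LA at day 8.

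SLC7A6 (y+LAT2), a light chain that exchanges arginine for glutamine and sodium, fell in 4 comparisons and rose in 1. The rise was in HuT-102 at day 8, with 3227, 3158, 3204 and 3707 with cobomarsen, against 2330.2, 2524, 2072 and 2146 untreated (0.55, adjusted p = 0.000617). The falls were small, -0.39 and -0.36 in MY-LA at day 4 and day 8, -0.35 in MJ at day 8 and -0.40 in HuT-78, and only the groups of MJ stood apart. Neither other probe set of SLC7A6 was called in MY-LA at day 8 (-0.13 and -0.17) or in HuT-78 (-0.17 and -0.25), so these falls rest on 1 probe set. Both others were called lower in MY-LA at day 4 and in MJ at day 8. SLC7A10 (Asc-1), a carrier of small neutral amino acids including D-serine, was above the limit of testing in MJ alone. There it read 741, 682, 736 and 675 at day 8 with cobomarsen, against 375, 405, 318 and 439 untreated, a rise of 0.86 ± 0.31 (adjusted p = 0.0263). At day 4 the MJ means were 579.6 with cobomarsen and 359 untreated (adjusted p = 0.115), a difference called with the arrays of MJ alone. SLC7A11 (xCT), which imports cystine in exchange for glutamate and feeds glutathione synthesis, was tested in all 7 comparisons and called in none. In MJ at day 4 its means were 833 with cobomarsen and 1272 untreated, and the difference was called with the arrays of MJ alone (adjusted p = 0.00349). Array 1 of both HuT-78 groups had the highest SLC7A11 signal there, as it had for SLC7A5.

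SLC7A2 (CAT2), a carrier of arginine and lysine, rose in HuT-102 at both days and was near background in the other lines. In HuT-102 at day 4 it read 559.9, 467, 438 and 654 with cobomarsen, against 104, 121, 159 and 228 untreated, 3.31-fold higher (1.73, adjusted p = 2.36e-06). At day 8 it read 1073, 1465, 1383 and 1552 with cobomarsen, against 16.1, 15.7, 104 and 92.7 untreated (adjusted p = 1.85e-19). The untreated mean at day 8 lay under the limit of testing, so only the signals are given there. Untreated HuT-102 cells also differed between the days, at 57.1 at day 8 and 153 at day 4. In MJ, MY-LA and HuT-78 the untreated day 8 means were 7.62, 6.72 and 5.69, and the gene was not tested there. SLC7A1 (CAT1), the widely expressed arginine carrier, fell in HuT-102 and MJ at both days and rose in MY-LA at day 8. MY-LA read 5742, 6239.7, 6354 and 5709.9 with cobomarsen, against 4848, 4475, 4219.7 and 3873 untreated (0.47, adjusted p = 1.92e-05). HuT-102 at day 8 read 3625, 3603, 2962 and 3314 with cobomarsen, against 5091, 5384, 4639 and 4486 untreated (-0.54, adjusted p = 1.49e-06). The treated and untreated arrays of SLC7A1 did not overlap in any of these 5 comparisons, and the MJ changes were -0.37 and -0.31. In the 4 comparisons of HuT-102 and MJ no other tested probe set of SLC7A1 was called, with changes of -0.66 to 0.017, so these falls rest on 1 probe set. In MY-LA at day 8, 2 of the 3 others were called higher.

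**Figure D3:**
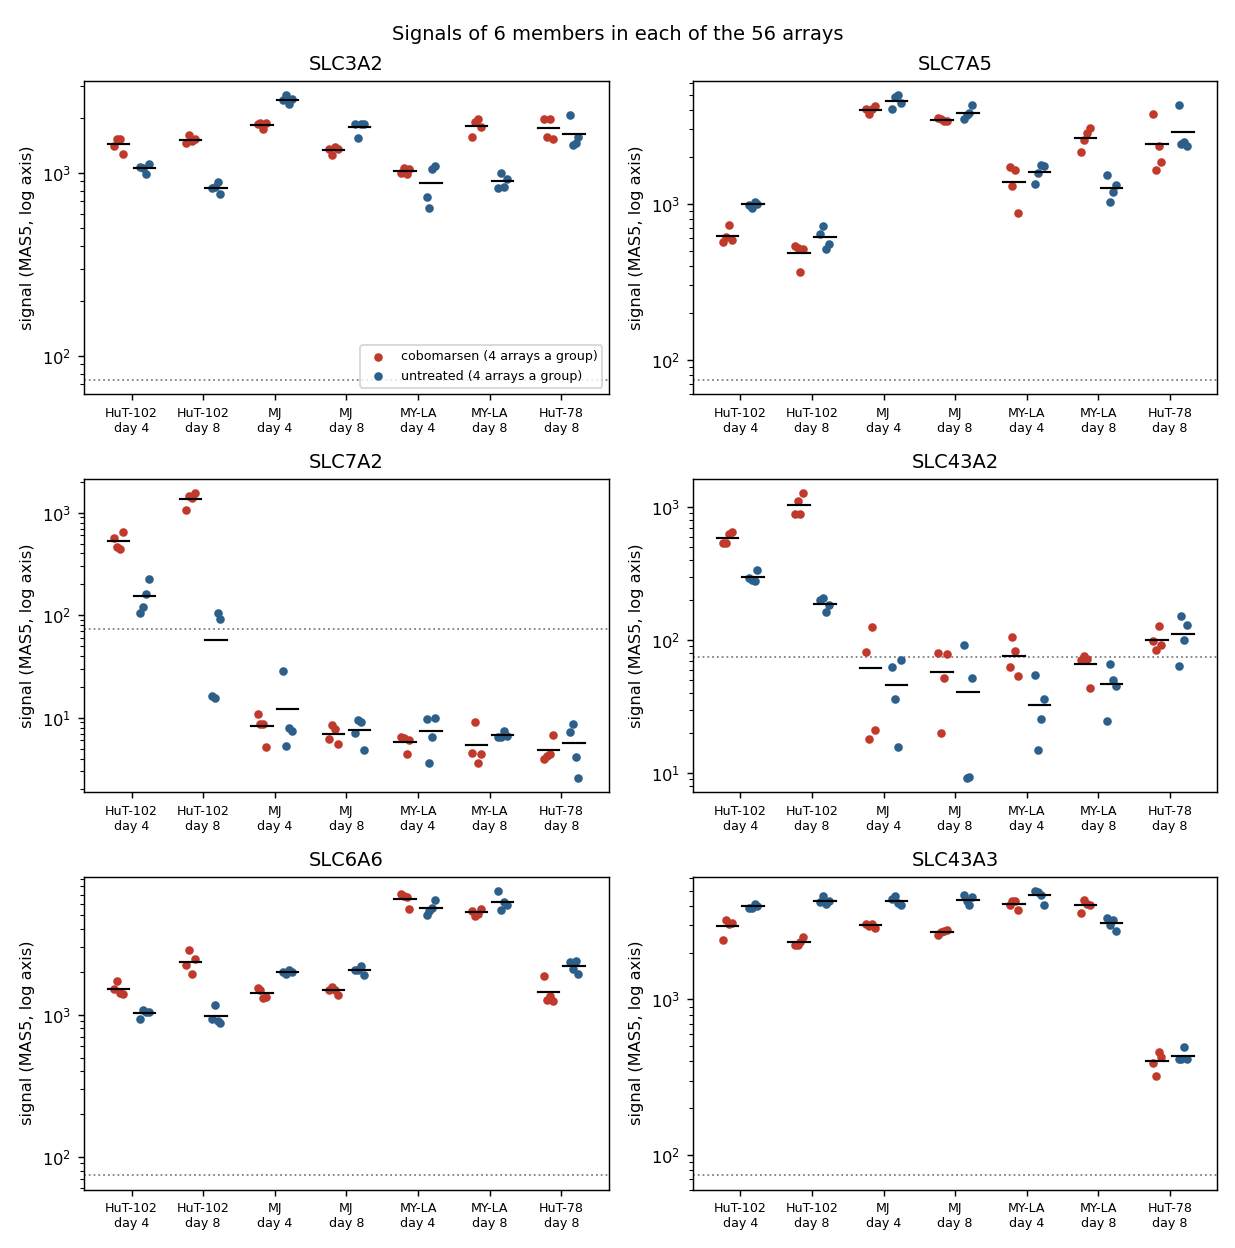
Signal on a log axis in each array for SLC3A2, SLC7A5, SLC7A2, SLC43A2, SLC6A6 and SLC43A3, with cobomarsen left of untreated in each line and day and bars at the group means. SLC3A2 and SLC7A5 stand higher with cobomarsen in MY-LA at day 8, SLC7A2 and SLC43A2 are raised in HuT-102, and SLC43A3 is lower with cobomarsen in HuT-102 and MJ.

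Of the SLC38A family, which holds the sodium-coupled carriers of glutamine and alanine known as systems A and N, 11 members were on the arrays. In MY-LA at day 8, 6 of 7 tested rose, against 23.6% of all genes. In HuT-102 at day 8, 0 of 8 rose and 2 fell, against 19.1% of all genes called higher and 21.3% called lower. SLC38A1 (SNAT1), a glutamine carrier, was lower with cobomarsen in HuT-102 and higher in MY-LA. Its arrays in HuT-102 at day 8 read 4078, 3675, 4053 and 4169 with cobomarsen, against 5388, 5656, 4962 and 5006 untreated, and in MY-LA at day 8 6807, 6438, 6559 and 7434, against 6047, 4882, 4914 and 4961 untreated. It fell in HuT-102 (-0.36 at day 4 and -0.39 at day 8) and in MJ at day 4 (-0.25, overlapping), had a change of -0.02 in MJ at day 8 (adjusted p = 0.892), and rose in MY-LA (0.22 at day 4, overlapping, and 0.39 at day 8, adjusted p = 0.000179). SLC38A2 (SNAT2), the system A carrier best known for its response to amino acid shortage, rose in MY-LA, by 0.30 at day 4 and 0.20 at day 8 (adjusted p = 0.00367 and 0.0382). The probe set used for SLC38A2 is of a kind that can bind related transcripts. Neither of its other tested probe sets was called in MY-LA at day 4 (0.19 and 0.10), and both were called higher at day 8 (0.24 and 0.26). SLC38A5 (SNAT5), a system N carrier, fell in HuT-102. It read 484, 538, 502 and 373 at day 8 with cobomarsen, against 1245, 1260.2, 1327 and 1185 untreated, and the change was -1.39 ± 0.26 (adjusted p = 1.56e-05), after -0.83 at day 4. In MJ the treated arrays also lay under the untreated ones, at 749.9 to 995 with cobomarsen and 1065 to 1432 untreated at day 8 and 802 to 1058 with cobomarsen and 1133 to 1506 untreated at day 4. These changes of -0.40 and -0.47 were not called in the fit of all arrays and were called with the arrays of MJ alone (adjusted p = 0.00562 and 0.002).

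SLC38A6 rose in MJ by 0.77 at day 4 and 0.47 at day 8, and in MY-LA by 0.53 and 0.78. Its signals were low, with MY-LA at day 8 at 202, 251, 176 and 193 with cobomarsen, against 129, 96.4, 129 and 98.6 untreated (adjusted p = 0.000581). SLC38A7, a lysosomal glutamine carrier, rose in MY-LA at day 8 to 227 with cobomarsen, against 134 untreated (0.71, adjusted p = 5.05e-05). No other tested probe set of SLC38A7 was called there, with changes of 0.45 and -0.07. SLC38A9, the lysosomal protein that senses arginine for mTORC1, rose in MY-LA at day 8 to 541, against 379 untreated (0.49, adjusted p = 4.59e-05). Neither of these lysosomal members overlapped between groups there. SLC38A10 rose in MJ (0.53 at day 4 and 0.45 at day 8) and in MY-LA at day 8 (0.54), and fell in HuT-78 (-0.43, with overlapping groups). In MJ every other tested probe set of SLC38A10 had a negative change, -0.81 to -0.069 at day 4 and -0.51 to -0.089 at day 8. Of these only the change of -0.51 at day 8 was called, so the direction in MJ depends on the probe set. Over all members, 94 pairs of a called change and another tested probe set of the gene were found, of which 50 had the same call, 43 had none and this 1 had the opposite.

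SLC36A1 (PAT1), the proton-coupled carrier of small amino acids on lysosomes, rose in MY-LA at day 8 and read 222, 194, 208 and 232 with cobomarsen, against 164, 141, 70.4 and 109 untreated (0.79, adjusted p = 0.00632). Its other probe set was not called there (0.048). SLC36A4 (PAT4), which carries proline and tryptophan with high affinity, fell slightly at day 8 in HuT-102 (-0.26, adjusted p = 0.00385) and in MJ (-0.23, adjusted p = 0.011), with no overlap in either line. The other probe set of SLC36A4 was called in neither line, with changes of -0.44 in HuT-102 and -9e-04 in MJ.

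SLC6A6 (TauT), the carrier of taurine, rose in HuT-102 and fell in MJ and HuT-78. HuT-102 at day 8 read 2231, 2835, 1919 and 2449 with cobomarsen, against 935, 1171, 910.1 and 869 untreated (1.26 ± 0.11, adjusted p = 1.33e-14), after a rise of 0.56 at day 4. MJ at day 8 read 1499, 1572, 1499 and 1383, against 2052, 2051, 2203 and 1899.5 untreated (-0.46, adjusted p = 0.000421). In HuT-78 it read 1883, 1259.8, 1364 and 1255, against 2344, 2086, 2404 and 1923 untreated (-0.61, adjusted p = 0.000142). None of these groups overlapped, and in HuT-78 this was the only one of the 3 falls without overlap. Of the 2409 genes called in HuT-78, 26.3% had no overlap. With the HuT-78 arrays alone SLC6A6 was not called, as no member was. In MJ and HuT-78 no other tested probe set of SLC6A6 was called, with changes of -0.62 to -0.16, so these falls rest on 1 probe set. In HuT-102 another of its probe sets was called higher at both days. SLC6A4 (SERT), the serotonin carrier, rose in HuT-102 and read 731, 980.1, 977 and 844 at day 8 with cobomarsen, against 191, 194, 215 and 285 untreated (1.93 ± 0.35, adjusted p = 8.57e-06), after 1.03 at day 4.

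SLC6A8, the creatine carrier, rose in MJ at both days (0.95 and 1.09) and in MY-LA at day 4 (0.80). Its signals in MJ at day 8 were 159, 205, 158 and 211 with cobomarsen and 96.5, 93.7, 35.4 and 103 untreated (adjusted p = 0.00147), close to the limit of testing, and its probe set is of a kind that can bind related transcripts. SLC6A13 (GAT2), a carrier of GABA and taurine, read 94.8, 148, 131 and 128 with cobomarsen in MJ at day 8, against 14.7, 106, 84.4 and 56.5 untreated (adjusted p = 0.0203), and the untreated mean lay under the limit of testing. The groups of SLC6A13 overlapped.

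SLC43A3, which carries nucleobases rather than amino acids, fell in HuT-102 and MJ at both days and rose in MY-LA at day 8. In MJ at day 8 it read 2603, 2712, 2736 and 2782 with cobomarsen, against 4676, 4294, 4018 and 4539 untreated (-0.69 ± 0.082, adjusted p = 1.08e-09). HuT-102 at day 8 read 2232, 2228, 2329 and 2529, against 4212, 4585, 4089.8 and 4311 untreated (-0.88, adjusted p = 5.23e-13). MY-LA at day 8 read 3604, 4359, 4074 and 4029.5, against 3329.9, 3012, 3236 and 2733 untreated (0.38, adjusted p = 0.000133). All 3 pairs of groups stood apart. The untreated MY-LA cells had themselves fallen between the days, to 3078 at day 8, against 4655 at day 4 (adjusted p = 1.44e-06).

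SLC1A1 (EAAT3), the carrier of glutamate, aspartate and cysteine, lay above the limit of testing in MJ and far below it in the other lines. At day 8 it read 663, 648, 680.5 and 750.5 with cobomarsen, against 1167, 1268, 1165 and 1204 untreated, and at day 4 815, 746, 657 and 709, against 1049.9, 1099, 1064 and 1139 untreated. The groups stood apart at both days, and the change of -0.80 ± 0.34 at day 8 was not called in the fit of all arrays (adjusted p = 0.0616). With the arrays of MJ alone it was called at both days (adjusted p = 2.54e-08 at day 8 and 3.48e-06 at day 4), a fit that leaves out the lines in which the gene is near background. The other acidic carriers SLC1A3 and SLC1A7 were tested in 2 and 1 of the comparisons and not called. The remaining members tested and not called in any were SLC3A1, SLC6A15, SLC6A16, SLC6A17, SLC7A3, SLC7A4, SLC7A7, SLC7A8, SLC7A9, SLC7A11 and SLC38A12. Of these, SLC6A15, a carrier of branched-chain amino acids and proline, was called lower in HuT-102 with the arrays of that line alone (adjusted p = 0.028 at day 4 and 0.0226 at day 8). Its signals were 107, 105, 96.0 and 104 with cobomarsen, against 167, 218, 164 and 161 untreated, at day 4, and its treated mean of 72.8 at day 8 lay under the limit of testing. The brain carriers SLC1A2, SLC1A6, SLC6A5, SLC6A7, SLC6A9 and SLC6A11, the monoamine carriers SLC6A2 and SLC6A3 and the epithelial carriers SLC6A14, SLC6A18, SLC6A19 and SLC6A20 were among the 18 never tested, with SLC6A12, SLC7A13, SLC7A14, SLC38A3, SLC38A4 and SLC38A11. For 16 of the 56 genes all 14 group means lay under the limit of testing, and for 20 all lay above it.

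The lines differed widely in their untreated transporter levels. At day 8, 23 of 26 members tested differed between the 4 lines, where 91.1% of all genes did. Untreated SLC1A4 averaged 6102 ± 368 in HuT-78, 1935 ± 64.6 in MJ, 861 ± 66.7 in MY-LA and 159 ± 28.4 in HuT-102 (SD, n = 4 each), with no overlap between neighbours in that order. SLC43A3 averaged 433 ± 39.2 in HuT-78, against 3078 to 4382 in the other lines. SLC38A5 read 33.1, 42.4, 55.4 and 69.1 in the untreated arrays of MY-LA, against means of 1215 to 1695 elsewhere. SLC6A6 was highest in MY-LA, at 6246 ± 838, and SLC7A5 lowest in HuT-102, at 608 ± 95.3. SLC1A1, at 1201 ± 48.2, and SLC7A10, at 384 ± 51.5, were MJ genes, with means of at most 22.9 and 27.2 in the other lines. The sample titles number HuT-102 and MJ in one range and MY-LA and HuT-78 in another, so a difference between lines of different ranges cannot be told apart from whatever that numbering stands for.

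**Figure D4:**
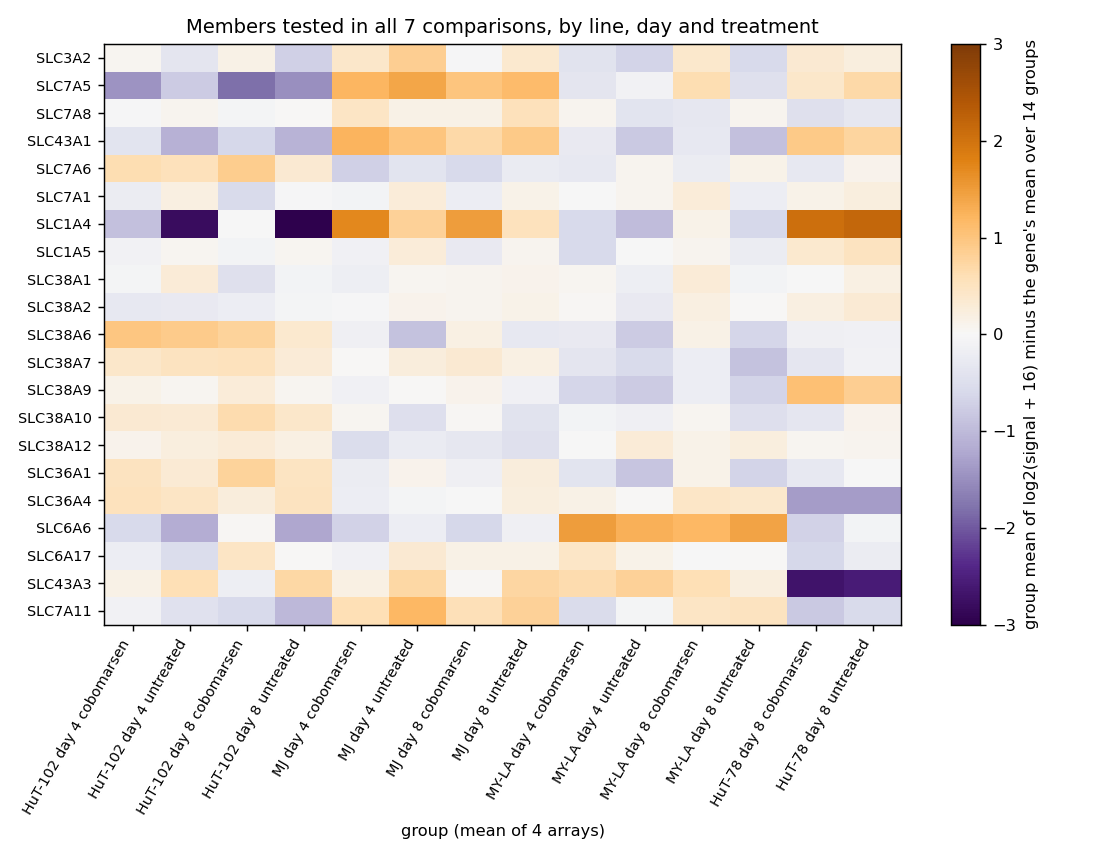
Group means of the 21 members tested in all 7 comparisons, each shown as its log2 level minus the gene's own mean over the 14 groups, with the colour scale ending at -3 and 3. SLC1A4 is high in HuT-78 and low in untreated HuT-102, and SLC43A3 is low in HuT-78.

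Untreated cells also changed between the harvests. In HuT-102, SLC3A2, SLC7A2, SLC7A5 and SLC38A1 were lower at day 8 than at day 4, 4 of 29 members tested, where 8.72% of all genes were called. In MJ, SLC3A2 fell and SLC36A4 rose (1.68% of all genes called). In MY-LA, SLC1A4, SLC36A4 and SLC38A2 rose and SLC7A1 and SLC43A3 fell (13.1%). Against this, the effect of cobomarsen differed between day 8 and day 4 for SLC1A4, SLC6A6 and SLC7A2 (more positive at day 8) and SLC43A3 (more negative) in HuT-102. In MY-LA it was more positive at day 8 for SLC1A5, SLC3A2, SLC7A1, SLC7A5 and SLC43A3 and more negative for SLC6A6. In MJ it differed for no member in limma's test, with 1 member at an unadjusted p under 0.05, where 1.38% of all genes were called. In MJ, SLC43A3 changed by -0.52 at day 4 and -0.69 at day 8.

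The size of the cobomarsen effect differed between the 4 lines at day 8 for 18 of 28 members tested, against 64.8% of all genes, and between the 3 lines at day 4 for 6 of 29, against 27.3% of all genes. Neither share exceeds that of all genes. The day 4 differences were in SLC1A4, SLC3A2, SLC6A6, SLC38A1, SLC38A2 and SLC38A10. At day 8, SLC6A6 differed between HuT-102 and MJ by 1.72 (adjusted p = 1.35e-13), SLC7A5 between HuT-102 and MY-LA by -1.38 (adjusted p = 7.42e-06), and SLC43A3 between MJ and MY-LA by -1.07 (adjusted p = 1.32e-10). HuT-102 and MJ, which share the day 8 fall of SLC43A3, differed in it by -0.19 ± 0.12 (adjusted p = 0.234).

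Of the genes of the amino acid response, the ATF4 pathway and its targets, those called in MJ were nearly all lower, and SLC3A2 and SLC7A1 fell there too. In MJ 0 rose and 13 fell of 25 tested at day 4 (median -0.33), where 14.3% of all genes were called lower. At day 8, 1 rose and 13 fell of 25 (median -0.38), where 18.7% of all genes were called lower. ASNS, asparagine synthetase, had a mean of 4322 with cobomarsen and 7933 untreated in MJ at day 8, CTH, which makes cysteine, 840.3 with cobomarsen and 2354 untreated, and PPP1R15A, which restarts translation, 718 with cobomarsen and 1435 untreated. The same list counted 8 rises and 3 falls of 22 in MY-LA at day 8, a share of 50% called against 42.0% of all genes, with ATF5 at 1846 with cobomarsen and 937 untreated and CBS at 719 with cobomarsen and 361 untreated. In HuT-102 it counted 6 rises and 7 falls of 26 at day 8, a share of 50% against 40.3%, with CEBPB at 993 with cobomarsen and 372 untreated and DDIT4, an inhibitor of mTORC1, at 4339 with cobomarsen and 9194 untreated. EIF2AK4, the GCN2 kinase, fell in HuT-102 (-0.66), MJ (-0.82) and MY-LA (-0.61) at day 8. SLC1A4 rose in MJ while ASNS and SLC3A2 fell there, and the part of the amino acid response in the transporter changes was not tested.

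**Figure D5:**
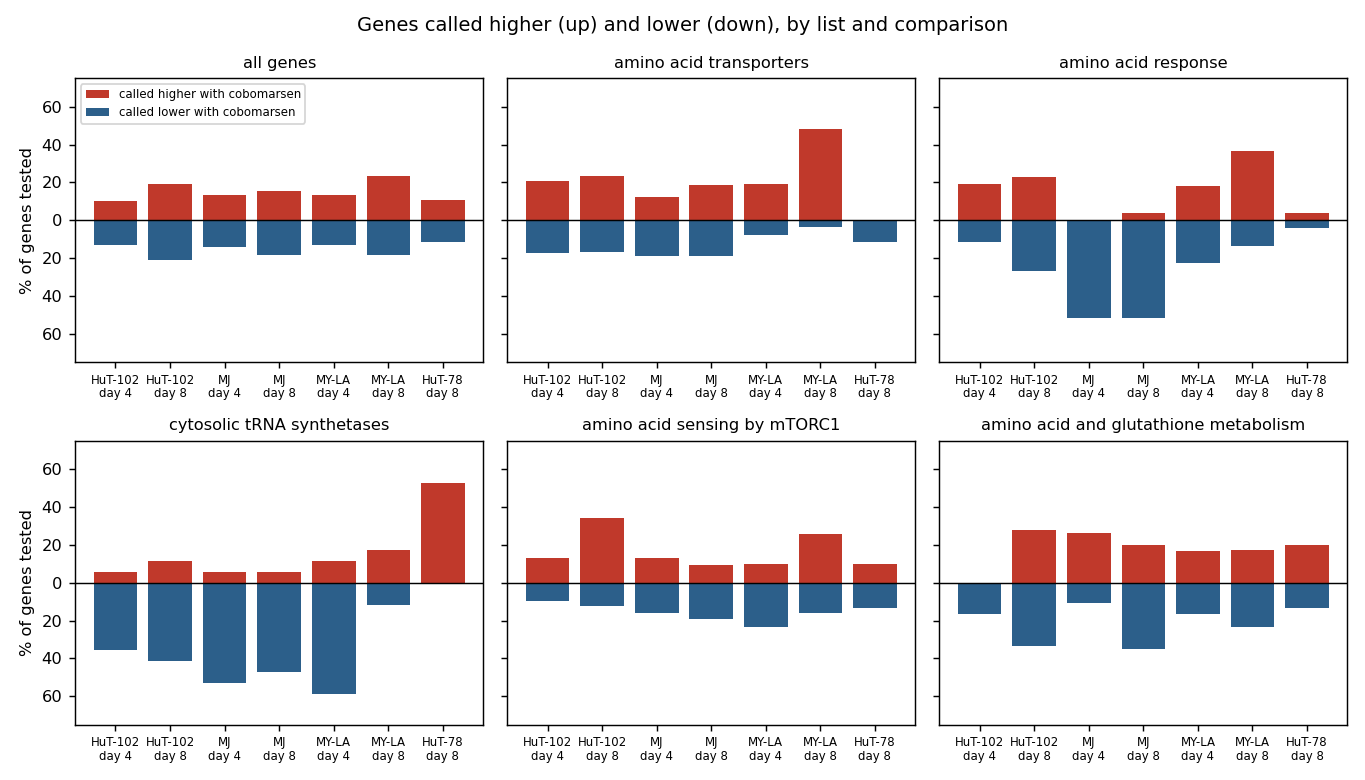
Percent of the genes tested that were called higher or lower with cobomarsen in the 7 comparisons, for all genes, the transporters and 4 related lists. Of the 25 amino acid response genes tested in MJ, 13 are lower at each day, and of the 27 transporters tested in MY-LA at day 8, 13 are higher and 1 is lower.

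The cytosolic tRNA synthetases, which load amino acids onto tRNA and of which several are known ATF4 targets, fell more often than they rose in MJ (1 rise and 8 falls of 17 at day 8), in HuT-102 (2 rises and 7 falls of 17 at day 8) and in MY-LA at day 4 (2 rises and 10 falls of 17), and in HuT-78 9 rose and 0 fell of 17. The shares called were 52.9% in MJ and in HuT-102 at day 8, against 34.0% and 40.3% of all genes, 70.6% in MY-LA at day 4, against 26.4%, and 52.9% in HuT-78, against 22.0%. In MY-LA at day 8, 3 rose and 2 fell of 17 (29.4%, against 42.0% of all genes). The HuT-78 rises rest on the spread shared over all lines, as its transporter calls do. NARS1, the asparagine enzyme, rose in HuT-102 at day 8, at 11629 with cobomarsen and 7089 untreated, and in MY-LA at day 8, at 14106 with cobomarsen and 9072 untreated. Of the genes by which mTORC1 senses amino acids, 11 rose and 4 fell of 32 in HuT-102 at day 8 (46.9% called, against 40.3% of all genes). Among them SESN3 read 7708 with cobomarsen and 2710.0 untreated, SESN1, a leucine-responsive sestrin, 1435 with cobomarsen and 519 untreated, and RRAGD, a Rag GTPase, 934 with cobomarsen and 362 untreated. In MY-LA 8 rose and 5 fell of 31 at day 8 (41.9%, against 42.0% of all genes), and SESN1 fell there, at 682 with cobomarsen and 1499 untreated. RHEB, the GTPase that switches mTORC1 on, rose at day 4 in HuT-102 (0.69), MJ (0.88) and MY-LA (1.13).

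Enzymes of amino acid and glutathione metabolism were called in both directions in each line at day 8. In HuT-102, 5 rose and 6 fell of 18 (61.1% called, against 40.3% of all genes), in MJ 4 rose and 7 fell of 20 (55%, against 34.0%) and in MY-LA 3 rose and 4 fell of 17 (41.2%, against 42.0%). In HuT-102 at day 8 those lower included GLUL, glutamine synthetase, at 409 with cobomarsen and 1854 untreated and ARG2, a mitochondrial arginase, at 213 with cobomarsen and 499.6 untreated. GLUL rose in MJ at day 4, at 7852 with cobomarsen and 3751 untreated, and was not called there at day 8 (-0.30, adjusted p = 0.364). GCLC, the catalytic subunit of glutathione synthesis, rose in HuT-102 (0.51) and MY-LA (0.67) at day 8. Of the known activators of transporter genes, 3 rose and 2 fell of 8 in HuT-102 at day 8 (62.5% called, against 40.3% of all genes). In MJ 3 rose and 3 fell of 9 (66.7%, against 34.0%), and in MY-LA 4 rose and 2 fell of 7 (85.7%, against 42.0%). In HuT-78 0 of 8 were called, against 22.0% of all genes. Among these activators NFE2L2 (NRF2) rose by 0.67 in HuT-102, 0.45 in MJ and 0.33 in MY-LA at day 8. MYCN rose in MJ, at 629.6 with cobomarsen and 143 untreated at day 8, MYC fell in HuT-102 (-0.70) and rose in MY-LA (0.30) at day 8, and EPAS1 (HIF-2α) fell in HuT-102 at day 8, at 5197 with cobomarsen and 13496 untreated. Among amino acid carriers of other families, SLC25A44, the mitochondrial importer of branched-chain amino acids, fell in MJ, at 692 with cobomarsen and 1715 untreated at day 8. Of these carriers, 2 rose and 4 fell of 12 in HuT-102 at day 8 (50% called, against 40.3% of all genes), 0 rose and 6 fell of 12 in MJ (50%, against 34.0%) and 3 rose and 1 fell of 12 in MY-LA (33.3%, against 42.0%).

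Other measures moved with treatment in the same arrays. The upper quartile of the signal was higher with cobomarsen without overlap in HuT-102 at day 8 (439.0 to 465.7 with cobomarsen, 419.5 to 429.0 untreated), in MJ at day 4 (430.4 to 444.5, against 399.6 to 430.0) and in MJ at day 8 (446.2 to 453.7, against 425.0 to 437.1). Its largest mean shift was downward, -42.4 in HuT-78, with overlapping ranges (380.2 to 431.3 with cobomarsen, 421.6 to 443.4 untreated). With quantile normalization the HuT-78 calls of SLC7A6 and SLC38A10 were lost. The ratio of the 3′ to the 5′ GAPDH probe set, a sign of RNA quality, was 0.921 to 0.951 with cobomarsen and 0.898 to 0.915 untreated in MJ at day 8. In MJ 4 of the 9 T cell markers tested rose at each day (44.4%, against 13.2% of all genes called higher at day 4 and 15.3% at day 8), and at day 8 PAX5, a B cell marker, read 59.3 with cobomarsen and 146 untreated, CSF1R, a macrophage marker, 137 with cobomarsen and 81.7 untreated, and COL1A2, a fibroblast marker, 314 with cobomarsen and 113 untreated. The part of these in the transporter changes was not tested.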

How the data were processed

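Total RNA of 56 samples from 4 CTCL lines was labelled with biotin and hybridised to Affymetrix arrays, 1 array a sample. The deposited values are signal intensity on a linear scale made with MAS5, per the submitters' processing notes, and the mean after trimming 2% of values at each end was 500.1 in every array, so the authors had scaled all arrays to 1 level. No other step is given in the sources used here. Of 54675 probe sets, 41091 had 1 gene symbol in the platform annotation, 1801 several, 11721 none and 62 were controls, and those without exactly 1 symbol were left out. Within groups, arrays correlated at 0.957 to 0.98 on the log2 scale, and no pair held identical values.

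Each gene was taken from its probe set with the highest mean, as log2(signal + 16), and tested where its mean over the arrays compared reached log2 6.49 (signal 74.0, the median of all values). The package limma 3.58.1 under R 4.3.3 fitted all 14 group means to the 56 arrays at once, leaving 42 degrees of freedom, with intensity-trended moderation (prior degrees of freedom 8.42 in the median). The threshold was 0.05 for two-sided p-values adjusted, by the Benjamini-Hochberg method, over all genes tested. Differences between days and lines were contrasts of contrasts and moderated F-tests. A gene with a group mean under 74.0 has its signals printed and no fold. Precision is limited by the 4 arrays a group. The steps were tested on simulated data.

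All members could be named, by role, with those called described singly. Of each related list up to 5 genes a comparison were eligible, called, not overlapping and of the largest change, and PICALM served as a check of treatment. The members, lists and roles were chosen with earlier results of these data known. Alternatives were log2(signal + 1) and log2(signal + 64), quantile normalization, no filter, a filter set at the 75th percentile, no trend, only the arrays of the lines compared, every probe set on its own, and each array left out in turn. Some genes of the related lists are not reported here. Symbols were mapped and figures drawn in Python 3.11.15 (pandas 2.3.3, NumPy 2.4.6, Matplotlib 3.10.9).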

Additional observations from a re-analysis of the deposited data

Results flagged for a closer look

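Of 293 groups of 4 arrays tested for a far array by Dixon's criterion, 19 held one, and chance alone gives about 5%. In HuT-102 with cobomarsen at day 8, array 4 was high for SLC1A4 (1678, the others 1214 to 1261), SLC7A6 (3707, the others 3158 to 3227) and SLC38A7 (524.2, the others 337.8 to 361.1), array 3 was low for SLC7A5 (365.2, the others 515.9 to 537.7) and array 1 low for SLC38A9 (628.0, the others 768.8 to 796.2). In untreated HuT-102 at day 8, array 1 was low for SLC36A1 (212.0, the others 294.9 to 313.9), array 3 for SLC43A1 (54.42, the others 107.2 to 109.8) and array 4 for SLC38A9 (623.2, the others 640.3 to 641.8). In untreated HuT-102 at day 4, array 4 was high for SLC38A7 (443.0, the others 353.4 to 367.1) and array 3 for SLC38A9 (732.8, the others 606.6 to 619.7).

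In MJ with cobomarsen at day 4, array 3 was low for SLC3A2 (1744, the others 1861 to 1882) and array 1 high for SLC7A6 (1353, the others 989.4 to 1026). In untreated MJ at day 8, array 2 was low for SLC3A2 (1550, the others 1852 to 1866), array 3 for SLC6A8 (35.38, the others 93.7 to 102.6) and array 4 for SLC43A1 (281.0, the others 472.1 to 494.6). In untreated MY-LA at day 8, array 1 was high for SLC38A1 (6047, the others 4882 to 4961) and array 2 low for SLC38A2 (5585, the others 6265 to 6350). In untreated HuT-78, array 1 was high for SLC7A5 (4314, the others 2332 to 2506) and array 3 for SLC43A3 (491.7, the others 413.2 to 413.3).

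The day 8 effect of cobomarsen differed between the 4 lines (limma's moderated F-test, adjusted p over all genes tested) for the carriers of neutral amino acids SLC1A4 (5.56e-21), SLC1A5 (0.0466), SLC7A5 (3.03e-06), SLC7A6 (1.99e-05) and SLC43A2 (0.000361) and for the heavy chain SLC3A2 (1.94e-11) and the arginine carrier SLC7A1 (9.63e-09). It also differed for SLC38A1 (1.86e-06), SLC38A2 (0.0315), SLC38A5 (0.0101), SLC38A7 (0.000917), SLC38A10 (2.67e-05), SLC36A1 (0.00595) and SLC36A4 (0.0145). The same held for the serotonin, taurine and creatine carriers SLC6A4 (0.000897), SLC6A6 (7.91e-16) and SLC6A8 (0.00291) and for SLC43A3 (2.05e-13). At day 4 it differed between the 3 lines for SLC1A4 (1.22e-09), SLC3A2 (2.43e-05), SLC6A6 (9.88e-07), SLC38A1 (0.000379), SLC38A2 (0.00809) and SLC38A10 (0.048).

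Between day 8 and day 4 the effect differed in HuT-102 for SLC1A4 (4.67e-06), SLC6A6 (0.00103), SLC7A2 (9.51e-07) and SLC43A3 (0.00907). In MY-LA it differed for SLC1A5 (0.00309), SLC3A2 (0.000431), SLC6A6 (0.0226), SLC7A1 (0.00142), SLC7A5 (0.00013) and SLC43A3 (0.000433).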

How the results depend on the processing

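Of the 69 called pairs of gene and comparison, 40 kept their call under every alternative, 29 lost it at least once and 0 changed direction. Calls were lost in 4 pairs with log2(signal + 1), 2 with log2(signal + 64), 7 with no filter, 16 with the filter at the 75th percentile, which tests fewer genes, 9 with quantile normalization, 5 with no trend, 11 with only the arrays of the lines compared, 2 with every probe set on its own and 19 in leaving out single arrays. With log2(signal + 64) the day difference in HuT-102 took in 7 members, against 4, and the day 4 difference between lines 10, against 6. The stricter filter left 7 calls in HuT-102 at day 4 and 15 differences of untreated level. Quantile normalization gave 4 calls in MY-LA at day 4, and the fit with no trend 3 for untreated MY-LA between days. With only the arrays of the lines compared, calls numbered 16 in MJ at day 4, 3 in MY-LA at day 4 and 0 in HuT-78, the day difference in HuT-102 took in 9, the untreated change 7 in HuT-102 and 4 in MJ, and the day 4 difference between lines 10. The cause of these shifts was not tested. Without 1 array at a time, calls ranged from 9 to 10 in HuT-102 at day 4 and 12 to 13 at day 8, 8 to 11 and 9 to 12 in MJ, 3 to 8 and 11 to 13 in MY-LA, and 1 to 6 in HuT-78. Day differences ranged from 4 to 5 in HuT-102, 0 to 0 in MJ and 5 to 7 in MY-LA, untreated changes from 3 to 4, 1 to 2 and 2 to 5 in these lines, differences between lines from 16 to 19 at day 8 and 5 to 8 at day 4, and untreated levels from 21 to 23. HuT-78 had 1 call without untreated array 1 or cobomarsen array 4 and 6 without cobomarsen array 1. An alternative chosen after seeing the data, without array 1 of both HuT-78 groups, gave 4 calls. For untreated MJ the count was 1 without array 1, 3 or 4 of day 4 or 1, 2 or 3 of day 8. For untreated MY-LA it was 3 without array 1 or 2 of day 4 or 1 of day 8, and 2 without array 3 of day 4 or 3 or 4 of day 8. Genes with a low signal are limited by background. No paired analysis was possible because the labels carry no replicate number shared between groups.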
